A study of Mus musculus with 23 samples.

Results

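The 10 genes described here encode splicing regulators that are enriched in neurons or otherwise restricted to a few tissues: Srrm4, Srrm3, Nova1, Nova2, Elavl2, Elavl3, Elavl4, Rbfox2, Rbm20 and Ptbp2. They were taken by name, and all 10 were found among the 20599 genes of a table of transcript levels from β-TC6 cells, a mouse insulinoma line used as a model of the pancreatic β cell. The table held 3 Bmal1-/- libraries, 3 Clock-/- libraries and 3 WT libraries of untreated cells. In Bmal1-/- cells exon 8 of Bmal1 had been deleted, and in Clock-/- cells exons 6 and 7 of Clock, in both cases by CRISPR-Cas9 in β-TC6 cells followed by drug selection (G418 for Bmal1, puromycin for Clock) and the picking of single colonies. Each knockout is therefore a clone, and genotype and clone cannot be told apart in what follows. Chromatin binding of THRAP3, a splicing-associated nuclear protein, was measured by ChIP-seq in the Bmal1-/- clone and in WT cells, with 2 Bmal1-/- and 2 WT peak lists.

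The regulators act on nuclear pre-mRNA by binding near alternative exons and helping or hindering the splicing machinery there. SRRM4 and its paralog SRRM3 promote inclusion of microexons, very short exons that are used mainly in neurons and endocrine cells. NOVA1 and NOVA2 are KH-domain proteins, the ELAVL2, ELAVL3 and ELAVL4 proteins are the neuronal members of the Hu family and bind U-rich and AU-rich RNA, RBFOX2 is the most broadly expressed RBFOX protein, RBM20 is known for its control of titin splicing in the heart, and PTBP2 is the neuronal counterpart of the repressor PTBP1. CLOCK and BMAL1 form the transcription factor pair of the circadian clock, which binds the E-box CACGTG.

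The sequences below are shown because expression of the first 3 genes changed most among those with a promoter window, and because the other 4 are examples of THRAP3 peaks that recurred between lists, each shown from a list in which it touched no annotated exon. RefSeq promoter windows of build GRCm38.p6 run 5′ to 3′ on the strand of the gene, with 250 bases before and 50 bases after the start. Capitals mark every match to the wider E-box form CANNTG, which reads the same on both strands. The Srrm4 window is chr5:116591768-116592067 (minus strand), the Elavl3 window chr9:22051974-22052273 (minus strand) and the Nova2 window chr7:18925638-18925937 (plus strand).
Srrm4 promoter: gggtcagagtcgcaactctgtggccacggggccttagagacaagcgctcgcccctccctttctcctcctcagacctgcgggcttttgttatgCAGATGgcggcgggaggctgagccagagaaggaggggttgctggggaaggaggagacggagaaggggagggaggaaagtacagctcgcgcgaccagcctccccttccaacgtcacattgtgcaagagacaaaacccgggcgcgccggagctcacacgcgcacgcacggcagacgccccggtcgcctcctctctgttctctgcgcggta
Elavl3 promoter: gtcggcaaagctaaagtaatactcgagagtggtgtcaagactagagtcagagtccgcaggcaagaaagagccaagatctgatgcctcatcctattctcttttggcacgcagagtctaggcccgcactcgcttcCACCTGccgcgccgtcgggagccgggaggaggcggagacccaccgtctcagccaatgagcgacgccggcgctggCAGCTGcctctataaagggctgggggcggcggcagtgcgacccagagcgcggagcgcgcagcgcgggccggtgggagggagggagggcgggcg
Nova2 promoter: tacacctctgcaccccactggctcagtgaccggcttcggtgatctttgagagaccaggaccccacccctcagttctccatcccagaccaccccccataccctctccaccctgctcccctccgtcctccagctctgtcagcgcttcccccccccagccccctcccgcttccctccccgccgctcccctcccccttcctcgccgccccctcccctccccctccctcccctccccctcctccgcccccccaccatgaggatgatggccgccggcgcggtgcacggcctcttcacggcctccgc
The THRAP3 peaks are given on the plus strand of the same build, with the same capitals. The Srrm4 peak is chr5:116448832-116449076 of Bmal1-/- list 2, the Rbm20 peak chr19:53830487-53830735 of Bmal1-/- list 1, the Rbfox2 peak chr15:77214922-77215134 of WT list 1 and the Elavl4 peak chr4:110351483-110351727 of Bmal1-/- list 2.
Srrm4 peak: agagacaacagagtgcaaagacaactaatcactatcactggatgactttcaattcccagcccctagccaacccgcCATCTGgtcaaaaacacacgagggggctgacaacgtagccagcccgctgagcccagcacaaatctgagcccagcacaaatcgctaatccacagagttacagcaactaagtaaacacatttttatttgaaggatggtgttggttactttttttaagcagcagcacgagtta
Rbm20 peak: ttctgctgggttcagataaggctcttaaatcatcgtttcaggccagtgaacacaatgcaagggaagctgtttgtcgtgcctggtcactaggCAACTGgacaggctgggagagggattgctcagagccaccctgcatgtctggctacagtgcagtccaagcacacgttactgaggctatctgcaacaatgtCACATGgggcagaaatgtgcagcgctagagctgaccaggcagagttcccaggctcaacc
Rbfox2 peak: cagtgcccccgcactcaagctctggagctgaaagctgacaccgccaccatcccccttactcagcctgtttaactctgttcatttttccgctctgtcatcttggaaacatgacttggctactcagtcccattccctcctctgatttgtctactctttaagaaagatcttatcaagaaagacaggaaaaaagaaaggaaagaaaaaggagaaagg
Elavl4 peak: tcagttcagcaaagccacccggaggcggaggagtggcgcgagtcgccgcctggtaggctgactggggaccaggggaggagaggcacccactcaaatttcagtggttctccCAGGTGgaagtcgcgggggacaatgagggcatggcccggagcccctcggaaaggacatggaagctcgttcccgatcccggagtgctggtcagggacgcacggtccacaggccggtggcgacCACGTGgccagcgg

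The letters CACGTG were absent from all 16 RefSeq promoter windows of the 8 regulators that had one, against 7.15% of 32851 windows genome-wide that hold them. The wider form CANNTG, which includes CACGTG, was present in 13 of the 16 windows and in 72.3% of all windows. Several windows of Elavl2 and Elavl4 overlap each other. Rbfox2 and Rbm20 were not matched to a window. Nova2 and Ptbp2 windows and 1 of the Elavl4 windows held no CANNTG.

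The libraries were checked before the genes were compared. The insulin gene Ins2 was at 12660 to 29440 TPM, a transcript level scaled for transcript length and library size, in the 9 libraries, and all 13 β cell markers reached 1 TPM in at least 1 library, with summed levels of 41020 to 43670 TPM in Bmal1-/-, 34400 to 40340 TPM in Clock-/- and 55650 to 58090 TPM in WT libraries. Most of each sum came from Ins2 and Iapp, and other markers of the list went both ways. Nkx6-1 was at 641.7 to 655.7 TPM in Bmal1-/-, 468.5 to 524.9 TPM in Clock-/- and 249.7 to 273.3 TPM in WT libraries. Pdx1 and Neurod1 were also higher in every knockout library. Slc2a2 was at 34.25 to 50.71, 5.805 to 8.248 and 101.6 to 113.4 TPM in the same order. Ins1 was at 2197 to 2567, 57.65 to 63.95 and 2277 to 2359 TPM. Ucn3 reached 1 TPM in Bmal1-/- and WT libraries only. Of 10 neuron markers, 9 were in the table and 7 reached 1 TPM, and their sum was 1479 to 1569 TPM in Bmal1-/-, 1071 to 1223 TPM in Clock-/- and 1218 to 1291 TPM in WT libraries, most of it from the neurofilament genes Nefm and Nefl. The glutamatergic marker Slc17a7 stayed at or under 0.203 TPM and Gad1 at or under 0.106 TPM in every library, whereas Gad2, which β cells also express, was at 6.86 to 8.01 TPM in Bmal1-/-, 24.3 to 39.1 TPM in Clock-/- and 39.1 to 47.9 TPM in WT libraries. Delta cell Sst stood at 16.8 to 22.8 TPM in Bmal1-/-, 287 to 373 TPM in Clock-/- and 82.9 to 92.9 TPM in WT libraries, and Cd68, a macrophage marker, made up most of a blood cell sum of 1.18 to 1.31, 21.0 to 22.3 and 8.78 to 9.67 TPM in Bmal1-/-, Clock-/- and WT libraries. Alpha cell markers summed to 1591 to 2117 TPM in Bmal1-/-, 4330 to 5024 TPM in Clock-/- and 2762 to 2857 TPM in WT libraries, most of it from Ttr. Glucagon (Gcg), of the same list, was at 49.4 to 53.9 TPM in Bmal1-/-, 1155 to 1308 TPM in Clock-/- and 462 to 493 TPM in WT libraries. The duct, fibroblast and endothelial markers summed to under 1 TPM in every library. In such bulk samples fewer cells of a type and less RNA per cell cannot be told apart. The part of these differences in the results below was not tested. Arntl, the gene symbol of Bmal1, averaged 3.42 ± 0.104 TPM in Bmal1-/- and 3.79 ± 0.378 TPM in WT cells, and Clock averaged 36.9 ± 9.32 TPM in Clock-/- and 45.8 ± 4.48 TPM in WT cells (SD, n = 3 each). Neither difference passed the test (limma adjusted p = 0.539 and 0.137), and a whole-gene level does not check the deletion of 1 or 2 exons. The paper checked the clones by qPCR of the disrupted exons, by Western blot and by a Per2 reporter, which lost its rhythm. Arntl was higher in Clock-/- than in WT cells, at 13.3 ± 2.8 TPM (SD, log2 fold change 1.57, limma adjusted p = 3.1e-05). Between 2189 and 2691 genes were listed at 0 in Bmal1-/- libraries, against 791 to 1010 in Clock-/- and 687 to 905 in WT libraries.

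All 10 regulators were expressed in WT cells. TPM is scaled for transcript length, so levels of different genes can be set side by side. Rbfox2 and Elavl4 had the highest WT levels, 51.9 ± 4.06 and 51.4 ± 3.92 TPM, and their libraries overlapped. Rbm20 (32.9 ± 2.23 TPM) and Ptbp2 (29.1 ± 3.47 TPM) came next and overlapped, followed by Elavl2 (20.5 ± 4.04 TPM), Nova1 (20.5 ± 1.79 TPM) and Srrm3 (19.3 ± 1.20 TPM), among which neighbours also overlapped. Elavl3 (8.88 ± 0.579 TPM) overlapped Srrm4 (8.14 ± 1.21 TPM), and Nova2 was lowest at 4.56 ± 0.636 TPM (SD, n = 3 throughout). Among the 15031 genes tested, the WT mean of Rbfox2 stood at percentile 76.8 and that of Nova2 at percentile 26.2. The order differed in the knockouts: Elavl3 was the lowest of the 10 in Bmal1-/- cells, at percentile 6.5, and Srrm4 the lowest in Clock-/- cells, at percentile 11.9.

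**Figure D1:**
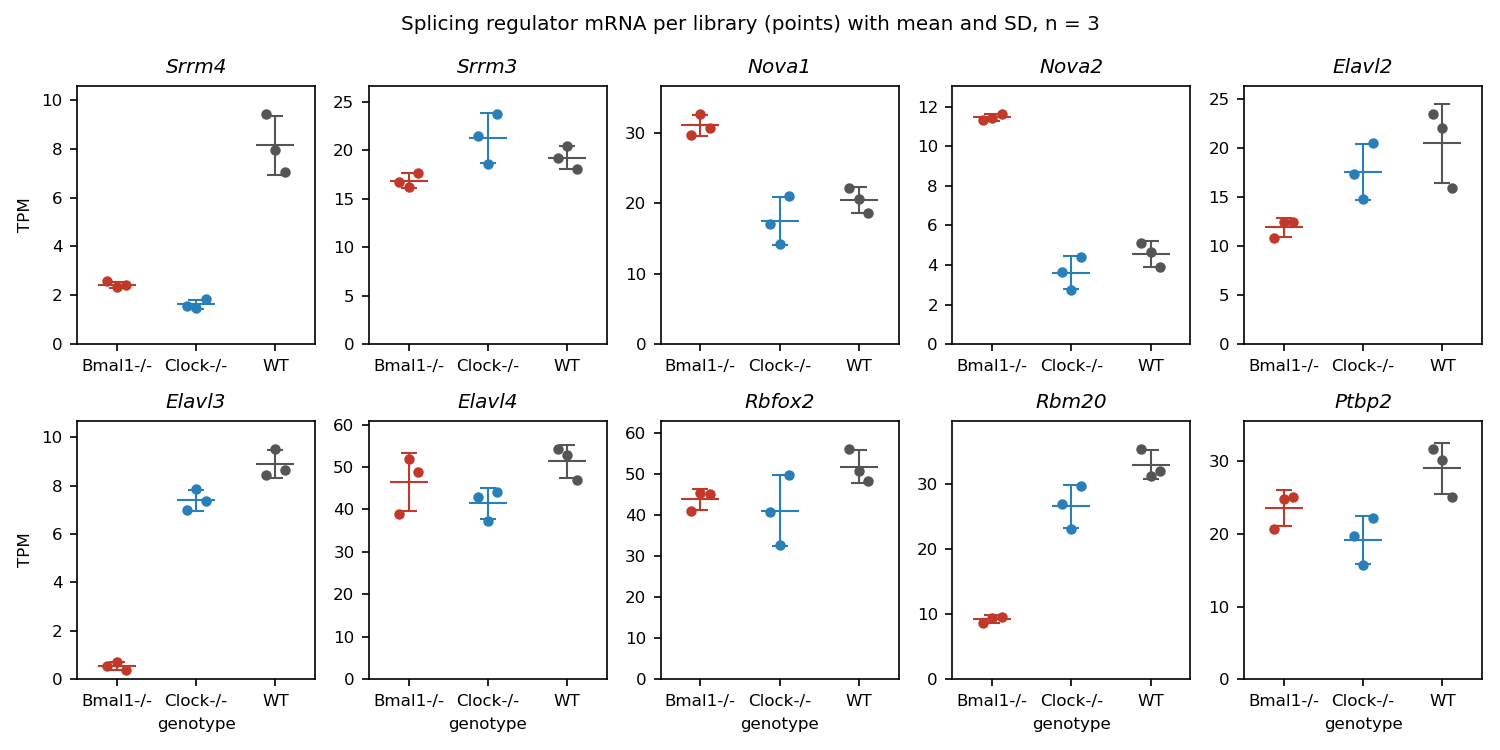
TPM (vertical axes, from 0) of the 10 splicing regulators in Bmal1-/-, Clock-/- and WT β-TC6 cells, with 1 point per library and the mean ± SD (n = 3). Srrm4 is low in both knockouts, whereas Elavl3 and Rbm20 are low and Nova1 and Nova2 high in Bmal1-/- cells, with Clock-/- libraries close to or overlapping WT.

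To see which regulators differed after loss of each clock gene, both knockouts were compared with WT by limma on log2(TPM + 1), and a gene is said to have risen or fallen at an adjusted p under 0.01. In Bmal1-/- cells 6 of the 10 passed: Nova1 and Nova2 rose, and Srrm4, Elavl2, Elavl3 and Rbm20 fell. Over all 15031 genes the same threshold was passed by 39.4%, with 18.4% higher and 21% lower. In Clock-/- cells 2 of the 10 passed, Srrm4 and Ptbp2, both lower, beside 23.9% of all genes, 9.5% higher and 14.4% lower. With an absolute log2 fold change above 1 as a further condition, 4 of the 10 (Srrm4, Nova2, Elavl3 and Rbm20) were called in Bmal1-/- cells against 11.8% of all genes, and 1 (Srrm4) in Clock-/- cells against 7.4%. The median log2 fold change of the regulators was -0.26 in Bmal1-/- and -0.29 in Clock-/- cells, where that of all genes was -0.04 and -0.02. The WT libraries are shared by the pair of comparisons. Libraries of a genotype were wells of the same line, so the p-values measure the spread between wells, which may be technical.

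Srrm4 (mm10, chr5:116439275-116591817, minus strand in GENCODE vM21, as for the coordinates of the other genes), which encodes the activator of neural microexons, was the only one of the 10 to fall in both knockouts. Its levels were 2.57, 2.32 and 2.43 TPM in Bmal1-/- libraries, 1.58, 1.47 and 1.84 TPM in Clock-/- libraries and 9.44, 7.96 and 7.03 TPM in WT libraries. Every knockout library lay below every WT library, and the Clock-/- libraries lay below the Bmal1-/- ones. The mean was 3.33-fold lower in Bmal1-/- than in WT cells (log2 fold change -1.40, SE 0.13, adjusted p = 1.8e-05) and 5.0-fold lower in Clock-/- than in WT cells (-1.79, SE 0.13, adjusted p = 6.1e-06). Log2 fold changes are on the TPM + 1 scale and understate the change of genes near 1 TPM. The knockouts did not differ past the threshold, at 0.39 for Bmal1-/- minus Clock-/- with a 95% confidence interval of 0.10 to 0.69 (adjusted p = 0.028). On chromosome 5, which holds Srrm4 and Srrm3, the median gene shifted by -0.12 in Bmal1-/- and -0.26 in Clock-/- cells. With that shift subtracted, Srrm4 stood at -1.28 and -1.54.

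Srrm3 (chr5:135806890-135874772, plus strand), the paralog with overlapping microexon targets, passed in neither comparison. It was at 16.7, 16.2 and 17.7 TPM in Bmal1-/- libraries, 21.5, 18.6 and 23.8 TPM in Clock-/- libraries and 19.3, 20.5 and 18.1 TPM in WT libraries. The Bmal1-/- libraries were all below WT by a small margin, and the Clock-/- libraries overlapped WT. The log2 fold change was -0.18 in Bmal1-/- cells (95% confidence interval -0.41 to 0.05, adjusted p = 0.16) and 0.13 in Clock-/- cells (-0.09 to 0.36, adjusted p = 0.33). With the chromosome 5 median subtracted, the Clock-/- value became 0.39 and passed the threshold (adjusted p = 0.0025).

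The Nova genes, which encode KH-domain splicing factors of neurons, rose in Bmal1-/- cells. Nova2 (chr7:18925888-18965319, plus strand) had 11.3, 11.4 and 11.7 TPM in Bmal1-/- libraries, 3.64, 2.75 and 4.42 TPM in Clock-/- libraries and 5.14, 4.67 and 3.88 TPM in WT libraries. The Bmal1-/- libraries stood apart from all others, and those of Clock-/- and WT cells overlapped. The Bmal1-/- mean was 2.52-fold that of WT (log2 fold change 1.17, SE 0.15, adjusted p = 1.2e-04), and the Clock-/- change was -0.28 (adjusted p = 0.17). Nova1 (chr12:46694517-46818929, minus strand) had 29.8, 32.7 and 30.7 TPM in Bmal1-/- libraries, 17.1, 14.3 and 21.0 TPM in Clock-/- libraries and 22.2, 20.7 and 18.6 TPM in WT libraries. It was thus higher in every Bmal1-/- library, by a smaller factor of 1.52 (log2 fold change 0.58, SE 0.13, adjusted p = 0.0038), and its Clock-/- change was -0.23 (adjusted p = 0.19). The Nova1 call was lost when WT replicate 2, WT replicate 3 or any Bmal1-/- replicate was left out, with adjusted p of 1.9e-04 to 0.017 over all alternatives.

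Among the Hu genes, Elavl3 (chr9:22015005-22052023, minus strand) changed most. It was at 0.533, 0.718 and 0.393 TPM in Bmal1-/- libraries, 7.00, 7.87 and 7.35 TPM in Clock-/- libraries and 8.46, 9.54 and 8.64 TPM in WT libraries. No Bmal1-/- library reached 1 TPM, and the Clock-/- libraries lay just below the WT ones without overlap. The mean was 16.2-fold lower in Bmal1-/- than in WT cells, with a log2 fold change of -2.68 on the TPM + 1 scale (SE 0.12, adjusted p = 1.9e-07). That value became -3.82 with a pseudocount of 0.1. In Clock-/- cells the change was -0.23 (95% confidence interval -0.50 to 0.04, adjusted p = 0.16).

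Elavl2 (chr4:91250763-91400785, minus strand), a further Hu gene, had 10.9, 12.5 and 12.5 TPM in Bmal1-/- libraries, 17.4, 14.8 and 20.6 TPM in Clock-/- libraries and 23.5, 22.1 and 15.9 TPM in WT libraries. Bmal1-/- libraries were all below the others, while Clock-/- and WT libraries overlapped. It fell 1.72-fold in Bmal1-/- cells (log2 fold change -0.72, SE 0.16, adjusted p = 0.0035), a call that was lost without WT replicate 1, WT replicate 2 or any Bmal1-/- replicate (adjusted p 6.9e-04 to 0.018 over all alternatives). Elavl4 (chr4:110203722-110351909, minus strand), the most abundant of the 3 Hu genes, was at 38.9, 51.9 and 48.9 TPM in Bmal1-/- libraries, 43.0, 37.2 and 44.1 TPM in Clock-/- libraries and 54.4, 52.9 and 47.0 TPM in WT libraries. It passed in neither knockout, at -0.15 in Bmal1-/- (95% confidence interval -0.41 to 0.11, adjusted p = 0.31) and -0.31 in Clock-/- cells (-0.57 to -0.05, adjusted p = 0.064).

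Rbm20 (chr19:53677306-53867080, plus strand), known from the heart, was expressed in all libraries. Of 8 cardiac and skeletal muscle markers, 6 were in the table and 2 reached 1 TPM, Acta1 (1.15 to 6.82 TPM) and Ryr2 (0.635 to 1.95 TPM), with sums of 2.4 to 4.2 TPM in Bmal1-/-, 5.06 to 8.65 TPM in Clock-/- and 5.51 to 6.46 TPM in WT libraries. Ttn, the best known target of RBM20, was under 0.1 TPM throughout. Rbm20 had 8.56, 9.46 and 9.62 TPM in Bmal1-/- libraries, 26.9, 23.1 and 29.7 TPM in Clock-/- libraries and 35.5, 31.3 and 32.1 TPM in WT libraries. The Bmal1-/- libraries were far below the others, and the Clock-/- ones were below WT without overlap. The mean was 3.57-fold lower in Bmal1-/- than in WT cells (log2 fold change -1.73, SE 0.10, adjusted p = 1.0e-06). The Clock-/- change was -0.31 (95% confidence interval -0.54 to -0.07) and did not pass (adjusted p = 0.043).

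Ptbp2 (chr3:119718742-119784466, minus strand), the neuronal paralog of PTBP1, had 20.7, 24.9 and 25.1 TPM in Bmal1-/- libraries, 19.8, 15.7 and 22.2 TPM in Clock-/- libraries and 31.8, 30.2 and 25.2 TPM in WT libraries. All 6 knockout libraries lay below the lowest WT library, in Bmal1-/- cells by under 0.1 TPM at the closest. It fell in Clock-/- cells (log2 fold change -0.58, SE 0.14, adjusted p = 0.0093) and did not pass in Bmal1-/- cells (-0.29, adjusted p = 0.10), and the difference between the knockouts was 0.29 (95% confidence interval -0.03 to 0.60, adjusted p = 0.10). The Clock-/- call was near the threshold and was lost in 12 of 18 alternatives, among them leaving out any single library other than WT replicate 3 or Clock-/- replicate 3 (adjusted p 0.0020 to 0.041). Rbfox2 (chr15:77078990-77307004, minus strand) was at 41.0, 45.5 and 45.2 TPM in Bmal1-/- libraries, 40.8, 32.6 and 49.9 TPM in Clock-/- libraries and 56.3, 50.9 and 48.3 TPM in WT libraries. Its changes of -0.23 in Bmal1-/- (adjusted p = 0.17) and -0.35 in Clock-/- cells (adjusted p = 0.069) were close to the shifts of the median gene on its chromosome 15, which were -0.25 and -0.28. With these subtracted, Rbfox2 stood at 0.01 and -0.06.

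**Figure D2:**
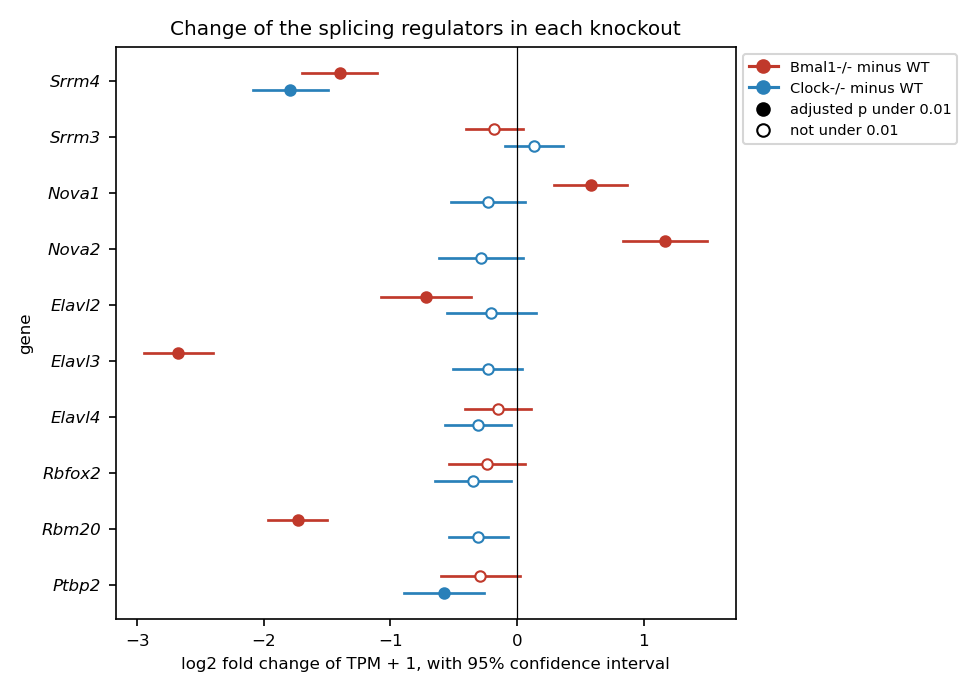
Log2 fold change of TPM + 1 (horizontal axis) of the 10 regulators in Bmal1-/- cells (red) and Clock-/- cells (blue) against WT, with 95% confidence intervals from limma. Filled points passed an adjusted p of 0.01: Srrm4 lies left of 0 in both, and Elavl3 at -2.68 in Bmal1-/- lies farthest from 0.

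The direct comparison of the knockouts, which tests whether their changes differ, called 4 of the 10 regulators, 2 higher and 2 lower, beside 44.6% of all genes, 22.8% higher and 21.8% lower. Nova2 (log2 difference 1.45, SE 0.15, adjusted p = 2.8e-05) and Nova1 (0.81, SE 0.13, adjusted p = 4.6e-04) were higher in Bmal1-/- than in Clock-/- cells. Elavl3 (-2.45, SE 0.12, adjusted p = 2.8e-07) and Rbm20 (-1.43, SE 0.10, adjusted p = 3.2e-06) were lower. The other 6, Srrm4 among them, did not pass. Bmal1-/- and WT libraries did not overlap for 9 of the 10 regulators and for 67.1% of all genes, and Clock-/- and WT libraries for 5 of the 10 and 46.5% of all genes. Bmal1-/- and Clock-/- libraries did not overlap for 7 of the 10 and for 63% of all genes.

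The genes whose profile over the 9 libraries was nearest to a strongly changed regulator were named from the root mean square (RMS) difference of centred log2(TPM + 1), as a description. Kl (RMS 0.11) and Lrtm2 (RMS 0.12) were nearest to Srrm4 and, like it, low in both knockouts: Kl, the ageing-related Klotho gene, averaged 1.90 TPM in Bmal1-/-, 1.46 TPM in Clock-/- and 7.86 TPM in WT cells. Nearest to Nova2 were Twsg1 (RMS 0.06) and Cyfip2 (RMS 0.07), the first at 406, 156 and 189 TPM in Bmal1-/-, Clock-/- and WT cells. Nearest to Elavl3 were Tspyl5 (RMS 0.12), which averaged 0.0091 TPM in Bmal1-/-, 4.89 TPM in Clock-/- and 5.74 TPM in WT cells, and Pycr1 (RMS 0.13), a proline synthesis enzyme. Nearest to Rbm20 were Ssr3 (RMS 0.07) and Gng12 (RMS 0.08), and the G protein subunit gene Gng12 was at 264 TPM in Bmal1-/-, 696 TPM in Clock-/- and 927 TPM in WT cells.

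Of 36 further cell-type-restricted splicing regulators and paralogs, 30 were tested. In Bmal1-/- cells 3 rose and 5 fell, and in Clock-/- cells 1 rose and 6 fell, with medians of -0.02 and -0.14 on the log2 scale. The share called, 26.7% and 23.3%, lay below and near the 39.4% and 23.9% of all genes. Ptbp1, the repressor paralog of Ptbp2, was at 253 TPM in Bmal1-/-, 235 TPM in Clock-/- and 248 TPM in WT cells and passed in neither (adjusted p = 0.80 and 0.43), and the ubiquitous Hu gene Elavl1 was at 45.9, 45.0 and 41.5 TPM in the same order (adjusted p = 0.33 and 0.50). Among genes of this list with a mean of at least 5 TPM in the higher genotype, Ptbp3 fell in Bmal1-/- cells (log2 fold change -0.84, adjusted p = 0.0030). Tra2a (-0.34, adjusted p = 0.0098), which encodes an SR-related activator, and Rbpms (-0.28, adjusted p = 0.0069) also fell there. Rbm38 (0.71, adjusted p = 8.9e-04) and the STAR-family gene Khdrbs3 (0.32, adjusted p = 0.0069) rose in Bmal1-/- cells. Below that limit, Raver2 (-1.34, limma adjusted p = 3.8e-05) and Msi1 (-0.73, adjusted p = 0.0012) fell and Rbm11 (0.84, adjusted p = 9.8e-04) rose in Bmal1-/- cells. In Clock-/- cells A1cf (-2.18, adjusted p = 1.1e-04), the neuronal CELF gene Celf3 (-0.84, adjusted p = 8.4e-04) and Mbnl2 (-0.82, adjusted p = 0.0045) fell, and Rbpms rose (0.59, adjusted p = 1.4e-04). Rbm38 (-0.56, limma adjusted p = 0.0054) and Khdrbs3 (-0.43, adjusted p = 0.0021) also fell there, calls lost in 5 and 3 of 18 alternatives. Below the limit, Raver2 fell in Clock-/- cells too (-1.30, adjusted p = 8.9e-05). The calls on Tra2a, Rbpms, Khdrbs3 and Ptbp3 in Bmal1-/- cells were lost in 10, 11, 7 and 3 of the 18 alternatives, for Ptbp3 without WT replicate 1, WT replicate 2 or Bmal1-/- replicate 1 (adjusted p up to 0.015). The Mbnl2 call in Clock-/- cells was lost in 5, among them without WT replicate 1, WT replicate 2 or Clock-/- replicate 1 (adjusted p up to 0.021).

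REST silences neuronal genes, Srrm4 and Srrm3 among them, outside neurons and endocrine cells. Rest itself averaged 1.53 TPM in Bmal1-/-, 3.33 TPM in Clock-/- and 2.30 TPM in WT cells, and passed in neither comparison (log2 fold change -0.38, adjusted p = 0.040, and 0.40, adjusted p = 0.045). Over REST and 12 corepressor genes, 6 of 13 rose and 0 fell in Bmal1-/- cells, led by the phosphatase gene Ctdsp2 (0.88, adjusted p = 2.0e-04), the histone methyltransferase gene Ehmt2 (0.84, adjusted p = 2.2e-05) and Rcor2 (0.56, adjusted p = 6.6e-04). In Clock-/- cells 0 of 13 rose and 1 fell, Ehmt2 (-0.40, adjusted p = 0.0039), a call lost in 5 of 18 alternatives, among them without WT replicate 1, WT replicate 2 or Clock-/- replicate 1 (adjusted p up to 0.019). The share called was 46.2% in Bmal1-/- cells, against 39.4% of all genes (18.4% higher and 21% lower). In Clock-/- cells it was 7.69%, against 23.9% of all genes (9.5% higher and 14.4% lower). The median was 0.25 in Bmal1-/- and -0.13 in Clock-/- cells.

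Of 30 neuronal and neuroendocrine genes that REST represses in other tissues, 6 rose and 11 fell in Bmal1-/- cells and 0 rose and 10 fell in Clock-/- cells, with medians of -0.23 and -0.20. Among those with a mean of at least 5 TPM in the higher genotype, in Bmal1-/- cells the granule peptide gene Vgf (-2.80, adjusted p = 7.2e-09), Stmn2 (-2.13, adjusted p = 1.3e-07) and Syt4 (-2.0, adjusted p = 3.7e-07) fell most, while Syt7 (1.34, adjusted p = 4.5e-05) and the calcium channel gene Cacna1h (1.08, adjusted p = 0.0012) rose. By the same limit, in Clock-/- cells the growth cone gene Gap43 (-2.26, adjusted p = 3.7e-07), Stmn2 (-1.35, adjusted p = 3.8e-06) and the SNARE gene Snap25 (-1.10, adjusted p = 2.3e-05) fell most, and below it Rph3a, at 0.413 TPM in Clock-/- and 3.26 TPM in WT cells, also fell (-1.59, adjusted p = 2.5e-05). Gap43 (-1.30, limma adjusted p = 8.6e-06), Snap25 (-1.91, adjusted p = 3.9e-07) and Rph3a (-1.99, adjusted p = 3.4e-06) fell in Bmal1-/- cells as well. The share called was 56.7% in Bmal1-/- cells, against 39.4% of all genes (18.4% higher and 21% lower), and 33.3% in Clock-/- cells, against 23.9% of all genes (9.5% higher and 14.4% lower).

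**Figure D3:**
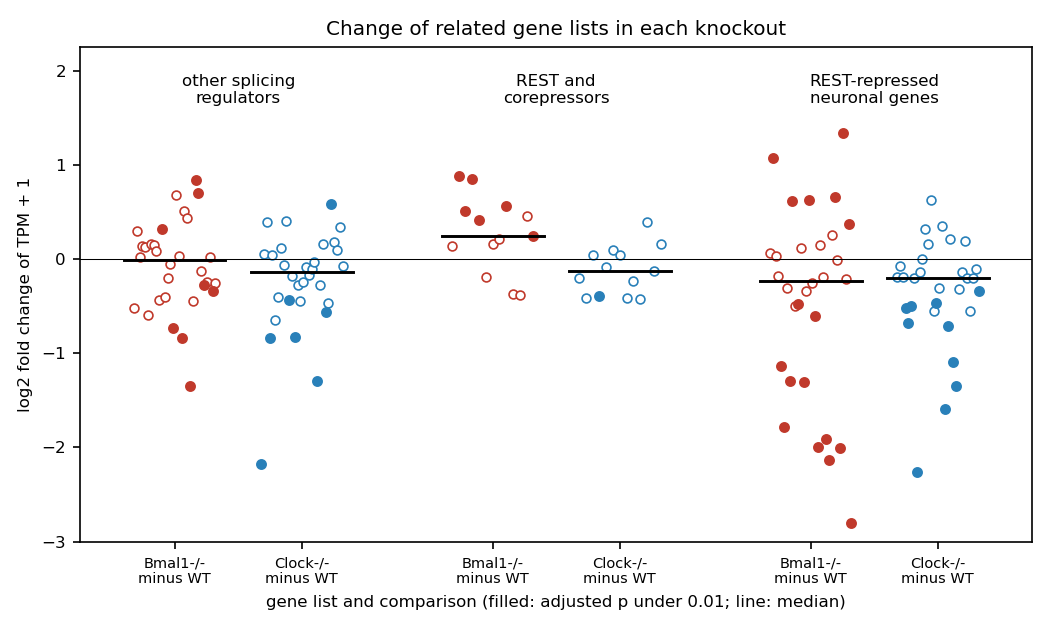
Log2 fold change of TPM + 1 (vertical axis) against WT in Bmal1-/- cells (red) and Clock-/- cells (blue) for 30 other splicing regulators, 13 genes of REST and its corepressors and 30 neuronal genes repressed by REST in other tissues, with 1 point per gene, filled where the adjusted p was under 0.01, and a line at the median. The filled REST corepressor points of Bmal1-/- cells all lie above 0, and the neuronal genes lie on both sides.

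THRAP3 binding was next read within the regulator genes. The peak lists differed in size: 12949 and 12226 peaks in the Bmal1-/- lists 1 and 2, against 808 and 6128 peaks in the WT lists 1 and 2, from 12734067 and 14961095 tags against 12296107 and 12882958 tags. The share of tags in peaks was 1.86% and 1.67% against 0.11% and 0.76%. WT list 1 stood apart, and no test between genotypes was made, since a site that is missing from a WT list may be below the threshold there. A peak was assigned to a gene when its midpoint lay within the annotated gene. By this rule 8 and 6 of the 10 regulators held a peak in Bmal1-/- lists 1 and 2, against 1 and 6 in WT lists 1 and 2. Among 14973 tested genes with coordinates the shares were 30.7% and 27.3% in the Bmal1-/- lists and 2.52% and 16.3% in the WT lists. The regulators are long genes, with a median of 136.3 kb against 18.42 kb for all tested genes. Per megabase of gene they held 11.6 and 9.14 peaks in the Bmal1-/- lists and 0.831 and 6.65 peaks in the WT lists, where all tested genes together held 9.76 and 8.73 peaks in the Bmal1-/- lists and 0.547 and 4.51 peaks in the WT lists.

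Merging overlapping peaks gave 21 sites in 9 regulators, of which 14 lay in introns, 3 touched a coding exon and 4 touched a UTR. None was in all 4 lists, 3 were in 3 lists, 7 in 2 lists and 11 in 1 list. The matching shares over all genes were not counted. Without WT list 1, 2 sites remained common to the other 3 lists, in Srrm4 and Elavl4. No peak lay in Elavl3, the most strongly changed of the 10 genes and also the shortest, at 37.02 kb. Heights below are normalized tag counts, tags per 10000000.

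The Srrm4 site lay in an intron 142.9 kb downstream of the gene start, at chr5:116448803-116449076. Its peak height was 10.2 and 14.0 in the Bmal1-/- lists and 8.54 in WT list 2. The sequence printed above held 1 CANNTG match, CATCTG. It was the only site in Srrm4, and it was called in both Bmal1-/- lists and in 1 WT list. Srrm4 mRNA was 3.33-fold lower in Bmal1-/- than in WT cells, and a link between the site and the mRNA level was not tested. In Rbfox2 an intronic site 92.0 kb from the start was the only one in the regulators called in both WT lists, with heights of 10.2 in Bmal1-/- list 1 and of 13.8 and 22.5 in WT lists 1 and 2. No CANNTG was in the peak printed above. Rbfox2 also had a peak of 11.8 touching a UTR 0.3 kb from its start, in Bmal1-/- list 1 alone. An intronic Rbfox2 peak of 8.54, 15.5 kb from the start, was in WT list 2 alone. Rbfox2 mRNA passed in neither knockout.

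At the start of Elavl4 a site was called in both Bmal1-/- lists (21.2 and 16) and in WT list 2 (12.4), with midpoints 74, 304 and 139 bases from the gene start. The 3 peaks each contained 1 CACGTG, seen in the printed peak, where 5.43% of the peaks in each Bmal1-/- list and 4.46% of those in WT list 2 did. The other 4 Elavl4 sites, intronic and 80.3 to 110.6 kb from the start, were each called in 1 Bmal1-/- list alone. Elavl2 had a site at an internal transcript start 24.3 kb from the gene start, with heights of 21.2 in Bmal1-/- list 1 and 19.4 in WT list 2, and an intronic site at 89.9 kb that was called in Bmal1-/- list 2 and, at 10.1, in WT list 2. A further Elavl2 peak of 15.4, near another internal transcript start 28.9 kb from the gene start, was in Bmal1-/- list 2 alone.

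Rbm20 had the highest peak of the 10 genes in each Bmal1-/- list, whereas in WT list 2 the highest was the Rbfox2 peak of 22.5. Its site 153.2 kb from the start, printed above, had heights of 29.1 and 20.7 in the Bmal1-/- lists, and its sites at 97.3 kb (18.1 and 16) and 175.6 kb (11 and 15.4) were also in both Bmal1-/- lists and in neither WT list. A WT list 2 peak of 10.1 lay 159.3 kb from the start, where the Bmal1-/- lists had none. Nova2 held 1 site, touching a coding exon 32.2 kb from the start, with heights of 10.2 and 12.7 in the Bmal1-/- lists and no call in WT. These 4 sites, in Rbm20 and Nova2, were the ones called in both Bmal1-/- lists and no WT list. How common such sites were over all genes was not counted, and the Bmal1-/- lists were the longer ones. Rbm20 mRNA fell and Nova2 mRNA rose in Bmal1-/- cells. Nova1 had a site touching a coding exon 118.4 kb from the start, with 13.4 in Bmal1-/- list 1 and 10.1 in WT list 2, Ptbp2 a peak of 13.4 near its start in Bmal1-/- list 1, and Srrm3 an intronic peak of 7.35 in Bmal1-/- list 2. A higher Nova1 peak, of 17.3, was in Bmal1-/- list 1 alone, at -489 bases from the gene start. Its midpoint lay outside the annotated gene, so it was not counted among the sites.

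**Figure D4:**
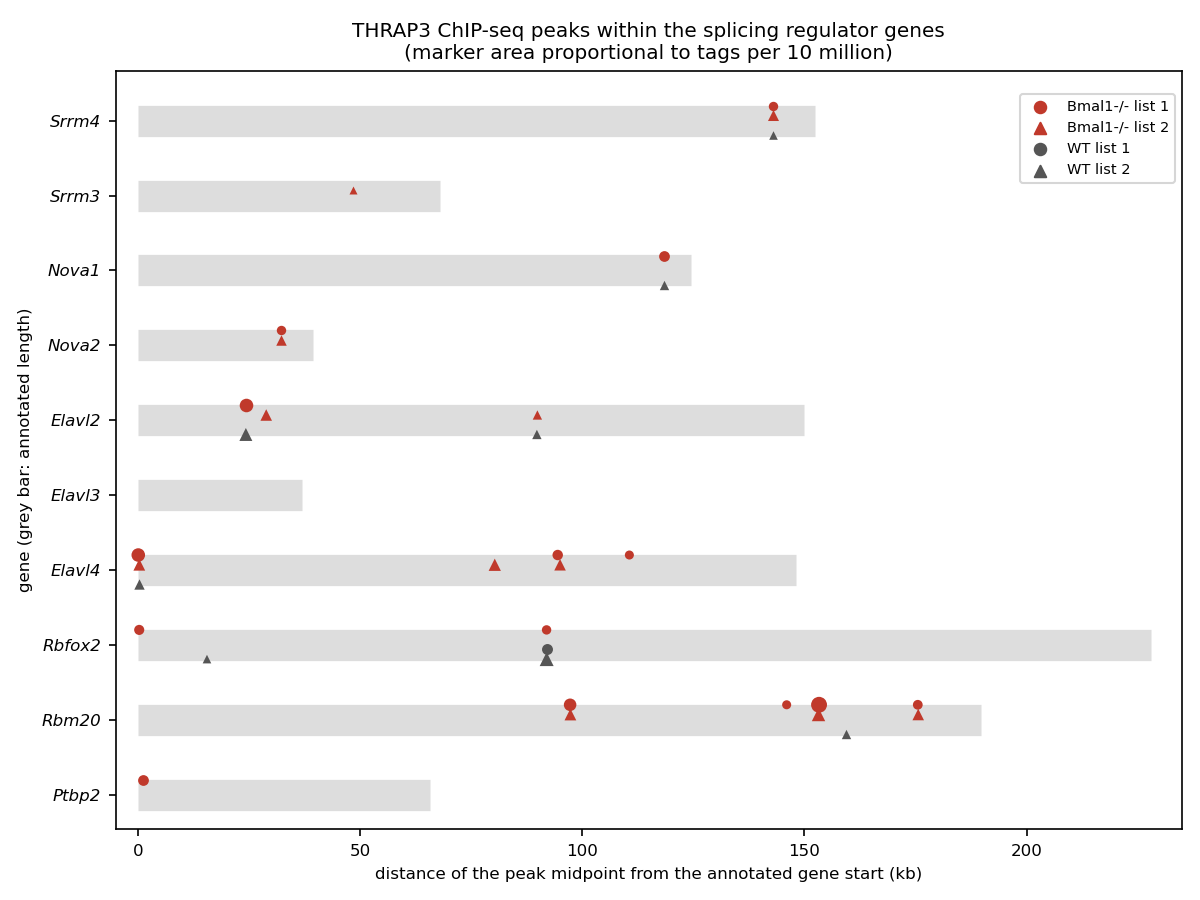
THRAP3 ChIP-seq peaks within the 10 regulator genes, by distance of the peak midpoint from the gene start in kb (horizontal axis), with the gene's length as a grey bar, Bmal1-/- lists in red, WT lists in dark grey and marker area proportional to tags per 10000000. Rbm20 has 3 sites shared by both Bmal1-/- lists, the Srrm4 site is in 3 lists, and Elavl3 has none.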

How the data were processed

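The authors aligned RNA-seq reads with STAR 2.5.0 and counted them with featureCounts 1.5.3 on the gencode vM10 annotation, and deposited TPM for 20599 genes. How TPM were derived is not given in the sources used here. The paper states a minimum read number, but the depth of each library is unknown, since TPM keep none. The authors' own tables of comparisons (DESeq2 1.22.1 fold changes and p-values) were not used. THRAP3 reads were aligned with Bowtie2 2.2.4 to mm10, and peaks were called by the authors per sample with HOMER at a false discovery rate of 0.001 and at least 4-fold over input. The deposited lists give a normalized tag count (a coverage signal per 10000000 tags), a findPeaks score and a fold over input. TPM were tested as log2(TPM + 1) with limma 3.58.1 (R 4.3.3, trend), for the 15031 genes at 1 TPM or more in at least 3 of 9 libraries, with Benjamini-Hochberg adjustment over them. On simulated data for Bmal1-/- against WT, 195 of 200 changed genes were recovered among 14440 genes. The simulated log2 changes were all larger than 1 and lay in genes above about 5 TPM. Far fewer genes were changed than passed in the real comparison. Smaller changes and lower genes were not simulated. Genes were placed with GENCODE vM21 and promoter windows with RefSeq GRCm38.p6. Named genes are the 10 regulators, Arntl and Clock, per list and knockout up to 3 genes of largest change in each direction with a mean of at least 5 TPM, and the 2 genes nearest to each regulator changed past 1 on the log2 scale. A gene that this rule names is not reported here. Ptbp1, Elavl1, Rest, Rph3a, Raver2, Msi1 and Rbm11 were named after their values were seen. The regulators and lists were chosen with earlier results of these data known. The eCLIP samples were not analysed here.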

Additional observations from a re-analysis of the deposited data

Results flagged for a closer look

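The change against WT differed between the knockouts for 4 regulators, by the limma test of Bmal1-/- minus Clock-/- on log2(TPM + 1) with adjusted p under 0.01. The difference was 0.81 for Nova1 and 1.45 for Nova2, where all 3 Bmal1-/- libraries were above all 3 Clock-/- libraries. It was -2.45 for Elavl3 and -1.43 for Rbm20, where all 3 Bmal1-/- libraries were below all 3 Clock-/- libraries. All 4 calls held under each alternative tried. Each knockout is 1 clone, so differences between genotypes and between clones cannot be told apart. Groups of 3 libraries were too small for a check of single outlying libraries.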

How the results depend on the processing

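The calls on Srrm4 in both knockouts and on Nova2, Elavl3 and Rbm20 in Bmal1-/- cells held under every alternative in which the gene was tested; with the filter raised to a mean of 5 TPM, Srrm4 was not tested. Of 1306 single-gene values under an alternative, 1207 kept direction and side of the threshold, 84 lost the call, 12 gained one and 3 changed sign. Those 3, none called, were Rbfox2 in Bmal1-/- against WT with the chromosome median subtracted (0.014), Rbfox2 in Bmal1-/- against Clock-/- without Clock-/- replicate 2 (-0.040, in a leave-one-out range up to 0.26) and Clock in Bmal1-/- against Clock-/- without Clock-/- replicate 3 (0.10, in a leave-one-out range down to -0.26). Regulators called in Clock-/- against WT dropped to 1 with a pseudocount of 0.1, no filter, the 5 TPM filter, only the libraries of the 2 genotypes, no trend, or the replicate block. Regulators called in Bmal1-/- against Clock-/- became 7 after rescaling by the median ratio (Elavl2, Srrm4 and Srrm3 gained) and 7 with the chromosome median subtracted (Ptbp2, Elavl2 and Srrm3 gained). Genes past a log2 fold change of 1 numbered 1060, 566 and 1325 with the 5 TPM filter, for Bmal1-/- against WT, Clock-/- against WT and Bmal1-/- against Clock-/-, since fewer genes were tested; the cause of the other changes was not tested. Leaving out 1 library gave 4 to 6, 1 to 3 and 4 to 6 regulators in the same order of comparisons, and 2383 (without WT replicate 2) to 4090 genes in Clock-/- against WT. The replicate numbers did not pair the libraries: deviations of same-numbered libraries correlated at -0.21 to 0.07 and of others at -0.16 to 0.21. With the replicate block, Nova1 (adjusted p = 0.011) and Elavl2 (adjusted p = 0.012) in Bmal1-/- cells lost their calls and 4 regulators remained. With at least 8-fold over input, 5 regulators had a peak in Bmal1-/- list 1, beside 18.8% of all genes. With the 2000 peaks of highest score, 3, 2 and 3 had one in Bmal1-/- list 1, Bmal1-/- list 2 and WT list 2, beside 6.13%, 5.68% and 5.8% of all genes. The depth of each RNA library beyond the paper's stated minimum is unknown, and WT list 1, with 808 peaks, limits what can be read from absent WT peaks.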
